A study of Caenorhabditis elegans with 2 samples.

Results

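The 9 genes of the Caenorhabditis elegans Rb, E2F and DREAM system were examined for binding of the E2F family protein EFL-3. They were taken by name (lin-35, efl-1, efl-2, dpl-1, lin-9, lin-37, lin-52, lin-53 and lin-54), and each was found once among the 19973 protein-coding nuclear genes of the annotation. An antibody against GFP was used for ChIP-seq, in which DNA bound by the tagged protein is immunoprecipitated and sequenced, on whole L1 larvae in 1 group with 2 biological replicates. Another field of the labels gives the antibody as efl-3, and the description, which gives anti-GFP, was followed here. The worms were of strain OP344, with the unc-119(tm4063) mutation and the transgene array wgIs344, which carries efl-3 (F49E12.6) fused to TY1, EGFP and 3xFLAG tags together with a wild-type copy of unc-119. The larvae were of both sexes and 6 hours old, and had been synchronised by bleaching and starvation. The promoter of the transgene and the cells that express it are not given in the labels, and whole animals mix all cell types. No untagged or mutant group was analysed here, so conditions are not compared.

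E2F proteins bind DNA as partners of a DP protein and switch genes of the cell cycle on or off. The Rb family of pocket proteins binds E2F and turns it into a repressor. In the DREAM complex, a pocket protein, E2F and DP are joined to the MuvB core, a set of proteins that can bind DNA at a CHR element and hold target genes silent in cells that do not divide. In worms these proteins are known from the synMuv B genes, which restrain vulval fate, and for keeping germline genes silent in somatic cells. EFL-3 is an atypical E2F, related to mammalian E2F7 and E2F8, a class that binds DNA without a DP partner or a pocket protein. Whether EFL-3 lies at the genes that encode DREAM is the question addressed here.

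The sequence around the strongest summit differed between members in its E2F consensus, and 4 stretches are shown for that contrast. The E2F consensus searched was TTTCCCGC, TTTCGCGC, TTTGCCGC or TTTGGCGC, and the CHR consensus was TTTGAA or TTCGAA, both on either strand. Capitals mark matches to either consensus, which do not overlap each other in these stretches. Each stretch is written 5′ to 3′ on the strand of its gene, from the RefSeq sequence of WBcel235 (ce11). The lin-9 stretch, on the minus strand of chrIII:8904155-8904355, and the lin-54 stretch, on the plus strand of chrIV:13240652-13240769, surround reproducible summits in promoters. The lin-54 stretch was shortened at its printed start, which lies next to an exon of the neighbouring gene rpl-12 on the other strand. The efl-1 stretch, on the minus strand of chrV:16965815-16966015, surrounds the summit of replicate 1, which fell just outside the strongest peaks of that replicate. The lin-52 stretch, on the minus strand of chrIII:9825917-9826117, surrounds a weaker summit that both replicates placed at the same position, and it holds neither consensus. Absence of both was not limited to weak summits. The reproducible promoter summit of lin-35, at rank 141 in the pooled list, also had neither within 100 bp and is not shown.
lin-9: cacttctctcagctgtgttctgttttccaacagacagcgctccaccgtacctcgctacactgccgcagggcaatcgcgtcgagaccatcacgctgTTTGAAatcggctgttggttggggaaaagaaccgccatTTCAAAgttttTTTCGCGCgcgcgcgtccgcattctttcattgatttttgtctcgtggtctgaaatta
lin-54: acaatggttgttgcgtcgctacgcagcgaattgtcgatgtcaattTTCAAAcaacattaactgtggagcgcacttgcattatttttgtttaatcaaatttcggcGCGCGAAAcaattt
efl-1: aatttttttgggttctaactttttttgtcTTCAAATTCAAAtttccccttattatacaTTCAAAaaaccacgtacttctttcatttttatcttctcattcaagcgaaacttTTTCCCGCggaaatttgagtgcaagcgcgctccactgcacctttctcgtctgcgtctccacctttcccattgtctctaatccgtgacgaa
lin-52: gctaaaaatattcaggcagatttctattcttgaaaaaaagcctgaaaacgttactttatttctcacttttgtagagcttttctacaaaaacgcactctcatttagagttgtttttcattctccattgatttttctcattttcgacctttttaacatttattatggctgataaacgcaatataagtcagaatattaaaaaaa

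The lin-9 stretch had an E2F match (TTTCGCGC as printed) 5 bases from a CHR match, and another CHR match with its middle 2.5 bp from the summit. The lin-54 stretch had the same E2F letters on the other strand (GCGCGAAA), with 53 bases between this match and the CHR match. The efl-1 stretch had the E2F form TTTCCCGC and 3 CHR matches, of which the nearest was 47 bases away. Over all promoters that held both motifs (1637 genes, in windows from 500 bp upstream to 100 bp downstream of the gene start), the median gap was 63.0 bases, and 12.6% had a gap of at most 5 bases.

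Among the 9 genes, the strongest EFL-3 peaks lay just upstream of the Rb gene and 3 of the 5 MuvB core genes, and not at efl-1, efl-2 or dpl-1. For each gene, every summit in the gene body or within 2000 bp upstream was collected from the list called on both replicates pooled and from the list of each replicate. Each list holds 30000 peaks, which is far more than the number that the authors kept as reproducible (430 peaks, identical to the 430 strongest pooled peaks). The pooled list placed 22 summits in the 51.6 kb of the member windows, which is 0.427 per kb, against 0.299 per kb over the genome. The genome value includes DNA outside gene windows, so it is not a like comparison. Replicate 1 also placed 22 and replicate 2 placed 21. Reproducible summits lay in the windows of 4 of the 9 genes (lin-9, lin-35, lin-53 and lin-54), against 2.67% of all protein-coding genes. All 4 of these summits were upstream of the gene start and in a promoter window, which runs from 1000 bp upstream to 500 bp downstream of an annotated start. The other 18 pooled summits lay upstream in 5 cases, in coding exons of the member in 7, in introns in 5 and in a 3′ UTR in 1.

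**Figure D1:**
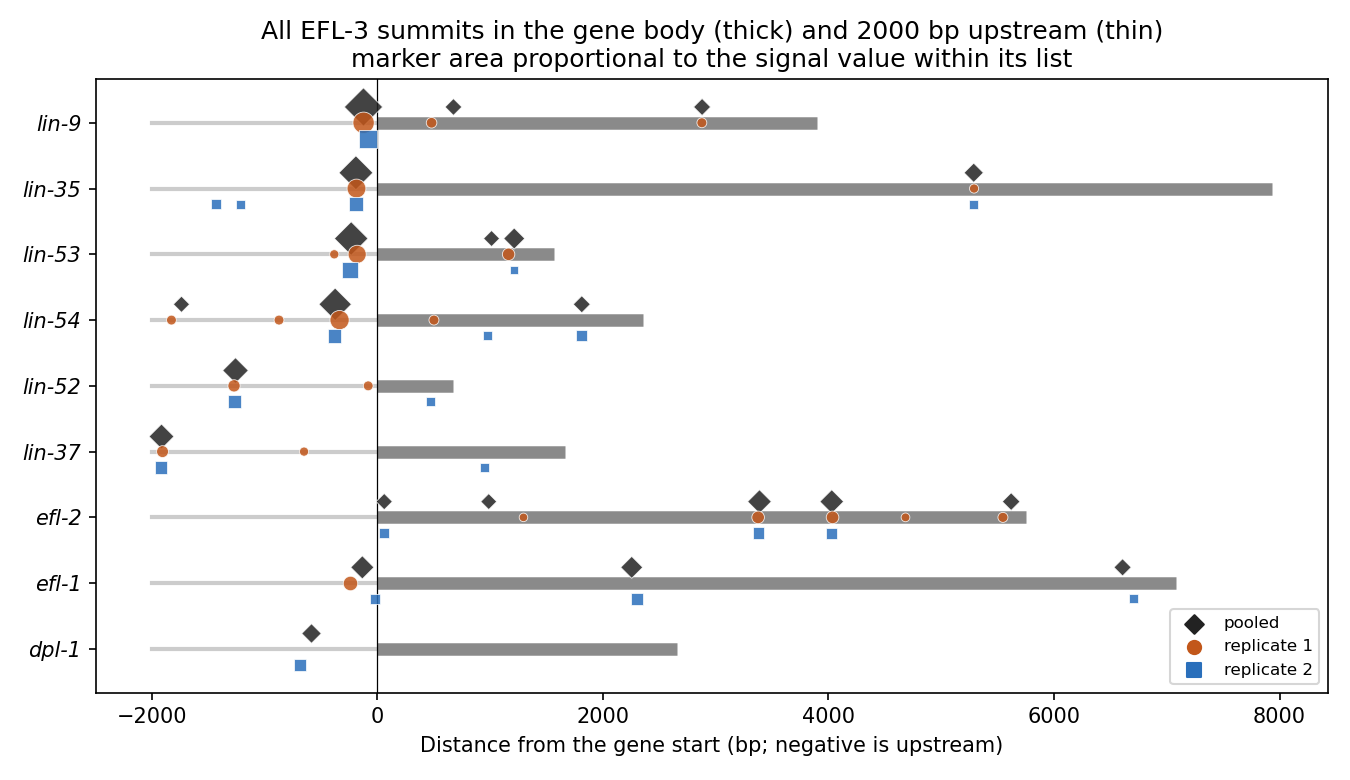
All summits at each gene against the distance from the gene start in bp, with the gene body as a thick bar and the 2000 bp upstream as a thin line. Marker area follows the signal value within the pooled list (diamonds), replicate 1 (circles) or replicate 2 (squares). The large markers of lin-9, lin-35, lin-53 and lin-54 sit 85 to 383 bp upstream of the start in every list, while those of lin-52 and lin-37 lie more than 1000 bp upstream and those of efl-2 lie inside the gene.

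The signal value is the deposited measure of enrichment from the authors' peak caller, has no unit, and is on a scale of its own in each list. The lists ended at 32.5 in the pooled data, 18.4 in replicate 1 and 18.2 in replicate 2. The 430th peak had a signal of 94.8, 54.0 and 49.5 in the same lists. Ranks are therefore given beside signals. Read depth is unknown, so no interval that needs it is given.

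lin-35 (WBGene00003020, chromosome I, 5807709 to 5815637, plus strand) encodes the only pocket protein of the worm. In the pooled list its promoter summit was at 5807518 on chromosome I, with a signal of 147.6 and rank 141. The signal was 90.9 (rank 112) in replicate 1 and 49.3 (rank 442) in replicate 2, where it fell just below the 430 strongest peaks. The summit positions differed by 3 bp between the replicates. This was the closest match among the 4 genes with a reproducible summit. The pooled summit was 191 bp upstream of the lin-35 start and 227 bp upstream of a start of vps-51, a divergent gene for a subunit of a vesicle tethering complex. A weak second summit in a coding exon, 5288 bp downstream of the start, ranked 9033 in the pooled list, and both replicates placed a summit within 3 bp of it.

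lin-9 (WBGene00002998, chromosome III, 8900237 to 8904131, minus strand) encodes a MuvB core subunit and had the strongest peak of the 9 genes. In the pooled list the promoter summit was at 8904255 on chromosome III, with a signal of 187.7 and rank 84. Its signal was 116.4 (rank 68) in replicate 1 and 74.1 (rank 138) in replicate 2. It was strong in both replicates, and no other annotated promoter window held it. The replicate summits were 38 bp apart, at 123 and 85 bp upstream of the start in replicates 1 and 2. The E2F match shown above had its middle 46.5 bp from the summit of replicate 1 and 8.5 bp from that of replicate 2. Both other pooled lin-9 summits were weak, with ranks of 21633 and 23363.

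lin-53 (WBGene00003036, chromosome I, 9618196 to 9619760, minus strand) encodes a histone-binding WD40 protein of the RbAp48 type, which is shared with other chromatin complexes. The pooled promoter summit was at 9619993 on chromosome I and reached a signal of 144.6 and rank 148. The signal was 83.8 (rank 143) in replicate 1 and 62.7 (rank 210) in replicate 2, so it was also strong in both. The summit was midway between divergent starts, 233 bp upstream of lin-53 and 234 bp upstream of nra-2, a gene for a nicalin-related protein. Replicate 1 placed it nearer to lin-53, at 180 bp, and replicate 2 nearer to nra-2, at 221 bp. A second pooled summit, in a coding exon of lin-53, ranked 3951 and lay 440 bp upstream of the start of rba-1, a related gene that follows lin-53 on the same strand. This one was uneven, with rank 1638 in replicate 1 and rank 25447 in replicate 2.

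lin-54 (WBGene00003037, chromosome IV, 13241044 to 13243401, plus strand) encodes the MuvB subunit that contacts the CHR element. The pooled promoter summit was at 13240669 on chromosome IV and reached a signal of 135.1 and rank 182. Its signal was 94.2 (rank 104) in replicate 1 and 45.4 (rank 611) in replicate 2, the widest gap in rank among the 4 genes. The summit was 375 bp upstream of lin-54 but 18 bp upstream of rpl-12, a divergent gene for a protein of the large ribosomal subunit. In replicates 1 and 2 the summit was 57 and 10 bp upstream of the rpl-12 start. When a summit counted for its nearest start alone, 3 of the 9 members had a reproducible summit, as this peak then went to rpl-12.

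The replicates did not give these genes equal weight. Among the 430 strongest peaks of replicate 1, summits fell in the windows of 4 members, against 2.63% of all genes. Among those of replicate 2 they fell in the windows of 2 members (lin-9 and lin-53), against 2.46% of all genes. Without replicate 1 the count thus fell to 2 of 9. Of the 4 members with a reproducible summit, 2 had one that was among the 430 strongest of both replicates. Over the whole reproducible set, 238 of the 430 peaks were strong in both, so such a loss was not particular to these genes. The deposited −log10 q of the 4 promoter summits was 1.71 to 1.94 in the pooled list and 1.84 to 2.17 in replicate 1. In replicate 2 it was 1.49 at lin-9, 1.13 at lin-53, 0.64 at lin-35 and 0.43 at lin-54. The ranking of the genes by q in replicate 2 thus followed that by signal. Of the 4 reproducible summits, all had a summit of each replicate within 100 bp, as did 94.2% of the whole reproducible set. Of the other 18 pooled summits at members, 6 did (33.3%), against 23.8% of the other pooled peaks.

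**Figure D2:**
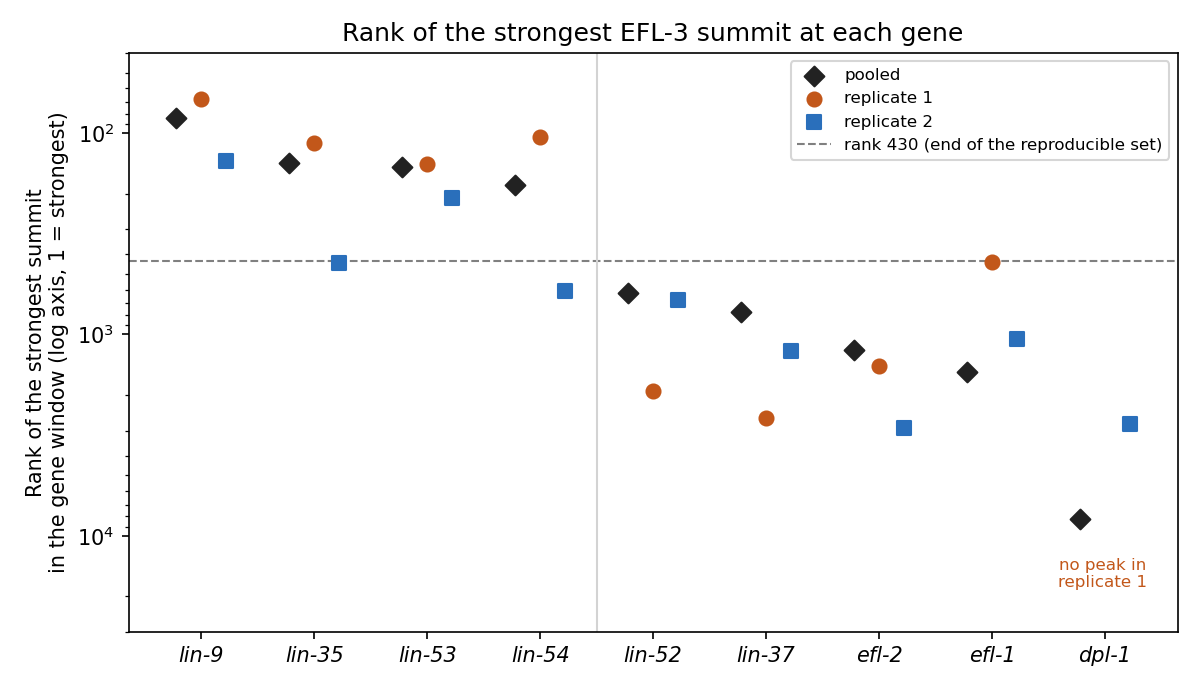
Rank of the strongest summit in each gene window on a log axis (1 is the strongest peak of a list), for the pooled list, replicate 1 and replicate 2, with a dashed line at rank 430. lin-9 and lin-53 are above the line in all 3 lists, lin-35 and lin-54 are below it in replicate 2 (ranks 442 and 611), and dpl-1 has no peak in replicate 1. The strongest summits of efl-1 and efl-2 are different summits in the replicates.

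The remaining MuvB core genes had weaker summits far from their starts, with a pooled −log10 q of 0.42 at lin-52 and 0.30 at lin-37. For lin-52 (WBGene00003035, chromosome III, 9824083 to 9824750, minus strand), a small MuvB subunit, the strongest pooled summit had a signal of 84.0 and rank 625, and it ranked 1898 in replicate 1 and 675 in replicate 2. Both replicates placed it at the same position within 3 bp, 1267 bp upstream of the outermost lin-52 start in the pooled list. The nearest start was that of ZK632.9, 585 bp away (named after its values were seen). For lin-37 (WBGene00003022, chromosome III, 7070890 to 7072552, minus strand), another MuvB subunit, the strongest pooled summit had a signal of 79.5 and rank 769, with ranks of 2602 and 1208 in replicates 1 and 2. It was 1922 bp upstream of lin-37, in a coding exon of ZK418.13 and 623 bp upstream of the start of ZK418.5 (both named after their values were seen). Neither lin-52 nor lin-37 had a pooled summit in its own promoter window. Replicate 1 had a weak one there for each, 82 bp upstream of lin-52 (rank 13932) and 651 bp upstream of lin-37 (rank 21534), and replicate 2 had a weak one 468 bp inside lin-52 (rank 27956). With 1000 bp upstream in place of 2000 bp, these genes had no pooled summit at all.

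The E2F and DP members (efl-1, efl-2 and dpl-1) had no reproducible summit. efl-1 (WBGene00001161, chromosome V, 16958590 to 16965675, minus strand) encodes the E2F subunit of DREAM, related to mammalian E2F4 and E2F5. Its promoter held a summit in each list, but at different places. In replicate 1 the summit was 240 bp upstream of the start with a signal of 53.8 and rank 436, just below the 430 strongest peaks. In replicate 2 it was 19 bp upstream with a signal of 24.1 and rank 13882. The pooled summit, between both, was 134 bp upstream with a signal of 68.6 and rank 1541. The strongest efl-1 summit of replicate 2 was in an intron, 2303 bp downstream of the start, with rank 1054 and no summit of replicate 1 near it.

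efl-2 (WBGene00001162, chromosome II, 13406140 to 13411895, plus strand) encodes a further E2F-like protein. It had the most pooled summits of the 9 genes, 5, all inside the gene. The strongest pair, in an intron 4029 bp and a coding exon 3388 bp downstream of the start, had signals of 72.1 and 71.7. Both had a summit of each replicate within 12 bp, at ranks of 1433 and 1454 in replicate 1 and of 3655 and 2920 in replicate 2. At its start, 60 bp into the gene, the pooled summit ranked 27456, replicate 2 had a summit at rank 12590, and replicate 1 had none. dpl-1 (WBGene00001061, chromosome II, 9169910 to 9172565, plus strand) encodes the DP partner. It had 1 pooled summit, with a signal of 48.7 and rank 8231, at 592 bp upstream and inside a coding exon of T23G7.2 (named after its values were seen). Replicate 2 had a summit 94 bp from it with rank 2788, and replicate 1 had none in the whole window.

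All 9 members had a relaxed pooled summit in the window, against 71.4% of all genes, whose windows had a median length of 4027 bp against 4656 bp for the members. The member windows ran from 2668 bp at lin-52 to 9929 bp at lin-35, with 9086 bp at efl-1 and 7756 bp at efl-2. A longer window has more room for a strong peak, and the values below are not adjusted for length. The strongest pooled signal of a member was 84.0 in the median, from 48.7 to 187.7, against a median of 41.2 over all genes, with 0 where there was no peak. The 4 members with a reproducible summit exceeded 98.8 to 99.5% of all genes in this measure. lin-52, lin-37, efl-2 and efl-1 exceeded 96.4, 95.6, 93.6 and 92.1%, and dpl-1 exceeded 68.3%. In the same order, the deposited −log10 q of these pooled summits was 0.42, 0.30, 0.18, 0.13 and 0.05, so none had q below 0.05. In 50-base words around the summits, no copy elsewhere in the genome was found at any of the 4 reproducible summits or at the strongest pooled summit of any other member.

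Members are called bound where a reproducible summit lay in the promoter window, and unbound otherwise. The unbound efl-1, efl-2 and dpl-1 still had a weaker pooled summit there, and efl-1 ranked 436 in replicate 1. In replicate 2 the bound lin-35 and lin-54 ranked 442 and 611, so the division depends on the threshold. Motifs were searched from 500 bp upstream to 100 bp downstream of the gene start. Promoters of 3 of the 4 bound members (lin-9, lin-53 and lin-54) and 1 of the 5 unbound members (efl-1) held the E2F consensus. Together these are 4 of 9 members, against 9.12% of all protein-coding genes. Of the 386 genes bound in the promoter window, 11.9% held it, and of the genes not bound there 9.06% did. The same 4 genes held it within 100 bp of their strongest pooled summit, against 4.15% of all pooled peaks and 7.44% of the reproducible set. These are promoter matches already counted, so this is not a separate observation. The shares cover every peak of a set, and the share at the strongest summit of every gene is not given here for either motif. Reordering the letters of the consensus in 3 ways gave no match in any of the 9 promoters, against 3.68, 4.51 and 4.36% of all genes. At such low shares, no match in 9 promoters is the likely outcome, so this does not test the E2F count.

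The E2F match was beside the pooled summit, not at it. Its middle was 47.5 bp from the summit at lin-9, 92.5 bp at lin-53, 90.5 bp at lin-54 and 91.5 bp at efl-1. Within 50 bp of the strongest pooled summit no member held a whole match. The summit of replicate 1 was closer to the match than the pooled summit at each of the 4 genes, at 46.5 bp for lin-9, 39.5 bp for lin-53, 51.5 bp for lin-54 and 14.5 bp for efl-1. In replicate 2 it was closer at lin-9 (8.5 bp) and farther at lin-53 (105.5 bp) and lin-54 (98.5 bp), and the strongest efl-1 summit, in an intron, was 2528.5 bp away. Of these 4 genes, lin-9 was the only one with a whole E2F match within 100 bp of its strongest replicate 2 summit. The efl-1 promoter held a second match 363.5 bp upstream of the start. lin-35, with the second strongest peak of the members in the pooled list though in neither replicate, had no E2F match in its gene body or within 2000 bp upstream. A match says only that these letters are present in the window.

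The CHR consensus did not distinguish bound from unbound promoters. It was present in 3 of the 4 bound promoters (not in that of lin-35) and in all 5 unbound ones, 8 of 9 in all, against 89.6% of all genes. At the strongest pooled summits it was present within 100 bp for 5 of the 9 members (lin-9, lin-53, lin-54, efl-1 and efl-2), against 43.9% of all pooled peaks. At lin-9 a match lay 2.5 bp from the pooled summit, and at lin-53 and lin-54 the nearest lay 46.5 and 30.5 bp from it. In replicate 1 the nearest match was 2.5 bp from the lin-53 summit and 8.5 bp from the lin-54 summit, and in replicate 2 it was 33.5 and 38.5 bp away. The short CHR letters are frequent in this genome, as the share over all genes shows. The GC content within 100 bp of the strongest pooled summits of the members was 43.8% in the median, against 43.3% for the reproducible set and 40.3% for the other pooled peaks.

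**Figure D3:**
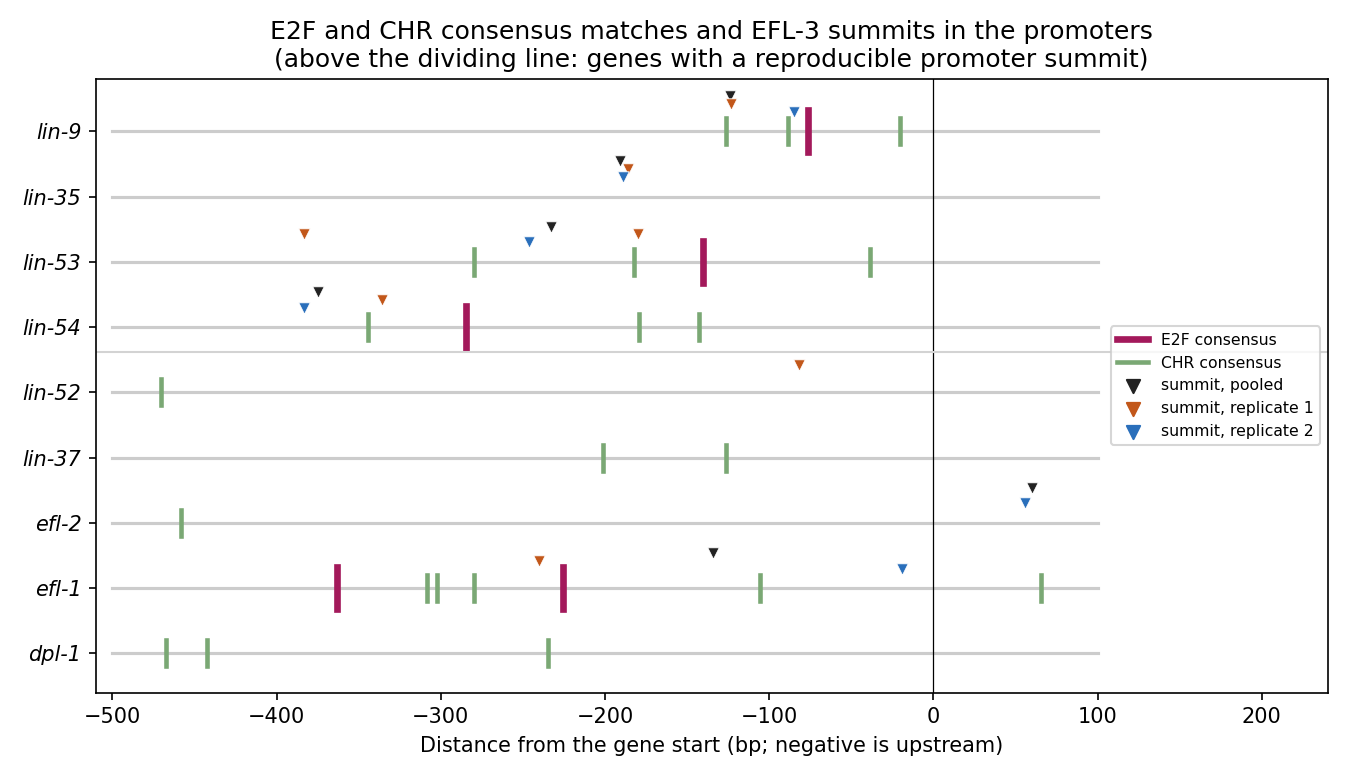
E2F matches (long purple bars), CHR matches (short green bars) and summits of the 3 lists (triangles) against the distance from the gene start in bp, from 500 bp upstream to 100 bp downstream. For the 4 genes above the dividing line the promoter summit was reproducible, and 3 of them held an E2F match on the side of the summit that faces the gene. The lin-35 promoter had the most closely aligned summits and neither motif, and in the efl-1 promoter the 3 lists placed the summit at 3 positions.

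Of 28 further genes that act with or beside DREAM, 2 had a reproducible summit in the window, against 2.67% of all genes. None had one in the promoter window, against 386 of all 19973 genes. The 2 genes were efl-3 itself, with an intronic summit (signal 204.2, rank 72, with ranks of 88 and 54 in replicates 1 and 2), and rba-1, whose window reached back to the lin-53 peak described above. The efl-3 summit was 2992 bp downstream of the efl-3 start, and the nearest start was that of fdgt-2 (named after its values were seen). Reads from the native efl-3 gene and from the transgene copy cannot be told apart in these lists. None of the 8 other synMuv B genes, 4 synMuv A genes or 9 genes of the cyclin inputs to Rb had one. The nearest to the threshold was lin-36 of synMuv B (named after its values were seen), 221 bp upstream of its start, with a signal of 93.2 and rank 459, and it ranked 2016 in replicate 1 and 377 in replicate 2. The medians of the strongest pooled signal were 48.5 for synMuv B, 54.9 for 6 partners of LIN-53, 59.3 for synMuv A and 61.8 for the cyclin inputs. The E2F consensus was present in 3 of the 28 promoters, against 9.12% of all genes.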

How the data were processed

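ChIP-seq peak lists of 2 biological replicates were used. Per the deposited file descriptions, peaks were called by the authors on ce11 for each replicate and for both pooled, against 1 control alignment, and thresholded by IDR (irreproducible discovery rate). The sources used here name neither the caller nor its parameters or the IDR cutoff. The signal (column 7) and the −log10 q-value are the authors' deposited values. Ranks followed the signal, in which no ties occurred. The summit is the peak start plus the deposited offset.

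Gene positions came from Ensembl release 115 (WBcel235, the assembly of ce11) and sequence from RefSeq's WBcel235. No peak ended beyond its chromosome. Motifs were searched on both strands with Python 3.11.15 and NumPy 2.4.6. The search was tested on simulated data, where 200 of 200 planted matches were found. Replicate summits within 100 bp counted as matched.

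The genes and lists were chosen with earlier results of these data known, so no set test was made and shares over all genes or peaks stand beside the main counts. Named genes were the members, efl-3, genes with a start near a reproducible member summit, and pathway genes with a reproducible summit. Other genes are marked as named after their values were seen. Peaks are not replicates, and depth is unknown.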

Additional observations from a re-analysis of the deposited data

How the results depend on the processing

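The count of 4 of 9 members with a reproducible summit was also 4 with 1000 or 5000 bp upstream, with the promoter window alone, with the 259 pooled peaks of q below 0.05, with the 215 strongest reproducible peaks, and with the strongest peaks of either replicate (an alternative chosen after seeing the data). Some of these alternatives could not lower the count. A window of 5000 bp can only add genes, and the 4 summits, at pooled ranks of 84 to 182, all lie within the strongest 215. The peaks of either replicate cannot give fewer than the 4 of replicate 1 alone. The count was 3 with the nearest start only, and 2 with peaks that were strong in both replicates. With a single replicate it ran from 2 (without replicate 1) to 4 (without replicate 2). The pathway count of 2 of 28 fell to 0 with the promoter window alone, and with a single replicate ran from 2 (without replicate 2) to 3 (without replicate 1). E2F matches at the strongest pooled summit fell to 0 of 9 within 50 bp, and were 4 within 200 bp. In all, 27 of 31 alternatives, including those that could not lower a count, left the count within 1.5 times its value and 4 moved it further. Members with an E2F match in the promoter ranged from 3 (250 bp upstream to 50 bp downstream) to 5 (1000 bp upstream to 500 bp downstream, which added lin-52 at 941.5 bp upstream). Only 2 replicates and no group without the tag were analysed, so no error was estimated for the ranks of single summits. No paired analysis was possible because there is only 1 group.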

Other observations

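Over the whole windows, promoters included, E2F matches were present in members with and without a reproducible summit. Over the gene body and 2000 bp upstream, lin-9 held 3 matches, lin-53 and lin-54 held 1 each and lin-35 held none. Among the members without a reproducible summit, efl-1 held 2, while efl-2, dpl-1 and lin-52 held 1 each and lin-37 held none. All matches of lin-53, lin-54 and efl-1 were the promoter matches described above. Of the members with a reproducible summit, only lin-9 held matches outside the promoter. The windows differ in length, so these counts are not densities, and the share of all genes with a match in such windows was not computed. The lin-54 promoter window also held 1 match to the E2F consensus that lacked only the first T, with its middle 41 bp from the pooled summit, nearer than the whole match. Its middle was 416 bp upstream of the lin-54 start, on the side of the summit that faces away from lin-54. There it lay past the rpl-12 start and inside rpl-12, and outside the printed stretch.

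At 3 of the 4 members with a reproducible summit (lin-35, lin-53 and lin-54) the summit also lay in the promoter window of a gene on the opposite strand. A peak in such a promoter cannot be given to one of its genes from these lists.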
